A study of Homo sapiens and Mus musculus with 33 samples.

Results

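The tight junction genes described here, 10 in number, were followed through the RNA-seq and ChIP-seq tables of mouse colon epithelium and of HCT116, a human colon carcinoma cell line. They are the claudins CLDN1, CLDN2, CLDN3, CLDN4, CLDN7, CLDN12, CLDN15 and CLDN23, occludin (OCLN) and TJP1, which encodes ZO-1. They were chosen by name, and all 10 were found among the 35805 genes of the HCT116 RNA-seq table and among the 25965 genes of the colon RNA-seq table. A ChIP-seq peak was counted to a gene when it lay in the gene interval or within 2 kb of it. This gave 31 of the 40266 HCT116 peaks, 18 of the 30338 H3K18cr peaks of colon and 11 of the 27035 H3K4me3 peaks of colon.

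HCT116 cells were kept for 18 hours in 5 µM MS275 (entinostat, an inhibitor of class I histone deacetylases) or in the solvent DMSO. RNA-seq covered 4 libraries per treatment, ChIP-seq for H3K18 crotonylation (H3K18cr) and H3K18 acetylation (H3K18ac) covered 3 libraries per mark and treatment, and each treatment had 1 input library. The colon samples came from untreated C57BL/6 mice, with 3 RNA-seq libraries, 2 H3K18cr libraries with 2 inputs, and 3 H3K4me3 libraries with 1 input. HCT116 is a single line, colon chromatin for H3K18cr was pooled from several animals, and the colon was given no treatment, so effects of MS275 can be read in HCT116 only.

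Tight junctions seal the space between neighbouring epithelial cells at their apical side. Claudins are membrane-spanning proteins, and the mix of claudins in a cell sheet sets which ions and molecules can pass between the cells. CLDN1, CLDN3, CLDN4 and CLDN7 are mostly known as sealing claudins, while CLDN2 and CLDN15 form pores for small cations. Occludin is a second kind of tight junction membrane protein, and ZO-1 is the scaffold inside the cell that ties claudins and occludin to actin. H3K4me3 marks the start sites of active genes, and H3K18cr and H3K18ac are acylations of the same lysine that are found at active promoters and enhancers.

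RNA-seq libraries held 35608533 to 53415604 counted reads in HCT116 and 8166406 to 10707901 in colon. Reads in peaks numbered 2236551 to 5730094 in the HCT116 ChIP libraries, against 1374609 and 1550122 in the inputs. Epithelial markers were present in both systems. In HCT116, 8 of the 9 epithelial markers had counts and CDX1 was at 0, with a summed level of 3624 to 5164 CPM (counts scaled to a common library total) in DMSO and 4749 to 5676 CPM in MS275. Summed immune markers (8 of 9 with counts in DMSO) gave 6.03 to 8.83 and 6.0 to 11.9 CPM, and endothelial markers gave 0.358 to 1.45 and 0.365 to 1.43 CPM. Smooth muscle markers summed to 5.23 to 28.5 CPM with DMSO and 13.3 to 23.2 CPM with MS275, and 0 of the 4 tested passed in edgeR with or without pairs of all libraries. Stromal markers summed to 7.64 to 11.9 CPM with DMSO and 13.2 to 20.9 CPM with MS275, a difference that was mostly COL1A1, at a mean of 6.93 against 13.3 CPM, and of the 3 stromal markers tested only COL1A1 passed when libraries were paired by replicate number, and 0 passed unpaired. In colon the epithelial markers summed to 8618 to 10224 CPM (9 of 9), against 25.3 to 33.3 CPM for immune and 45.0 to 68.9 CPM for smooth muscle markers. Stromal markers in colon summed to 25.8 to 29.8 CPM and endothelial markers to 11.5 to 14.9 CPM. The part of these other markers in the results was not tested.

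The promoters of 4 members are shown first, because the results on MS275 turn on them. At CLDN7, CLDN4 and TJP1 scaled reads of both marks were called lower with MS275, a relative measure. The H3K18cr call at TJP1 was lost under another scaling. At CLDN2 neither mark passed the test although its RNA was called lower when libraries were paired. Sequences are RefSeq, build GRCh38.p14, from 250 bases before to 50 after a start of the gene, 5′ to 3′ on the strand of the gene. CLDN7 is on the minus strand at chr17:7262429-7262728, CLDN4 on the plus strand at chr7:73830746-73831045, TJP1 on the minus strand at chr15:29822419-29822718 and CLDN2 on the plus strand at chrX:106918110-106918409. The genes themselves span chr17:7259903-7263983, chr7:73799542-73832693, chr15:29699367-29968865 and chrX:106900164-106930861 in the deposited GRCh38 table. Capitals mark AACCGG (part of the grainyhead motif), CAGGTG (the E-box bound by Snail and ZEB factors) and GGGCGG (the GC box bound by SP1), each searched on both strands.
CLDN7: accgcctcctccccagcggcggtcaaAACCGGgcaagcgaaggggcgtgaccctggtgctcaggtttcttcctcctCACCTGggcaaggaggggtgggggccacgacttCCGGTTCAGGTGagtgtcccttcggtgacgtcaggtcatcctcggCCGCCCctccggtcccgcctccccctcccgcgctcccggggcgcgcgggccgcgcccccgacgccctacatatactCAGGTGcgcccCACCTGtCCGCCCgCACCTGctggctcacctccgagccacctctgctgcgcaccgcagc
CLDN4: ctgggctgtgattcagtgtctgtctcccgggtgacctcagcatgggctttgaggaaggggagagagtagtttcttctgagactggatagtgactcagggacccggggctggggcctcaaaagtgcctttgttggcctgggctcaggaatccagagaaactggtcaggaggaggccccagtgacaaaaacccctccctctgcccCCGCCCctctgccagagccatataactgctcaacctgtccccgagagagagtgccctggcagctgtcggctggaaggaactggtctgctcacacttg
TJP1: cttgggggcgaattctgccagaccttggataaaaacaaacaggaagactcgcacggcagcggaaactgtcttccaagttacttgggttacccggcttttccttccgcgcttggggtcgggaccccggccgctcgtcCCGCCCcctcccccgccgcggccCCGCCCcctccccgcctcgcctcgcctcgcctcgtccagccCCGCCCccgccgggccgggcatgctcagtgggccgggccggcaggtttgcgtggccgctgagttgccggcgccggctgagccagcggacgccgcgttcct
CLDN2: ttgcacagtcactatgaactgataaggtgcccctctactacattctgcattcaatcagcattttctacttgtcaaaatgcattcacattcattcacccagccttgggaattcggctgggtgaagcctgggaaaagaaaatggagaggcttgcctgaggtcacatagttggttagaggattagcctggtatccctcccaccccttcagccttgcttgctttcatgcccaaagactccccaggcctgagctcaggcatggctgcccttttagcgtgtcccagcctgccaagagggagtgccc

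The 4 windows differed widely in CpG content. The CLDN7 window held 30 CpG and 71.7% GC, and the TJP1 window 36 CpG and 71.3% GC. The CLDN4 window held only 5 CpG at 59.0% GC, and the CLDN2 window 2 CpG at 51.3% GC. Over all 35116 RefSeq promoter windows of that length the medians were 14 CpG and 58.7% GC. The CLDN7 window held 2 AACCGG, 5 CAGGTG and 2 GGGCGG, 1 AACCGG and 1 CAGGTG lying side by side. GGGCGG occurred 3 times in the TJP1 window and once in that of CLDN4, and the CLDN2 window held none of these letters. Among all promoters, 7.23% held AACCGG, 20.6% CAGGTG and 45.0% GGGCGG. All 4 windows lay inside an HCT116 peak. Other RefSeq starts of these genes had fewer CpG and lay in peaks as well, except the most upstream TJP1 start. That TJP1 window (chr15:29969000-29969299) was in no peak and held 34 CpG, 3 GGGCGG and 1 CAGGTG. A second CLDN7 window (chr17:7263164-7263463) had 10 CpG and none of these letters, further TJP1 windows had 21 CpG with 1 GGGCGG and 3 CpG with none, and a second CLDN2 window had 1 CpG and none. TATAAA, searched as well, was found in 11.5% of all promoters and in none of these 4.

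The question of which junction genes each epithelium uses was addressed with RNA levels per kb of exon. In DMSO-treated HCT116 cells, CLDN7 and CLDN4 led, at 66.8 ± 8.76 and 55.7 ± 14.3 CPM per kb (mean ± SD, n = 4). CLDN7 took 43.3% of the summed level of the 8 claudins, CLDN4 36.1% and CLDN3 12.1%. These shares depend on the length used. By CPM alone CLDN4 came first with 50.6% and CLDN7 second with 32.2%, and per kb of the whole gene interval CLDN7 took 57.3%, CLDN3 26.2% and CLDN4 11.1%. CLDN3 stood at 18.6 ± 4.5 CPM per kb, TJP1 at 8.56 ± 2.73 and CLDN12 at 7.24 ± 2.58. The rest were low. CLDN23 gave 2.51 ± 1.17, CLDN15 1.83 ± 0.791, CLDN2 1.69 ± 1.05 and OCLN 1.52 ± 0.725 CPM per kb. CLDN1 was at the limit of detection, with 3, 0, 13 and 11 counts in the 4 DMSO libraries, where 3 counts correspond to 0.0562 to 0.0826 CPM.

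Ranges of the 4 libraries overlapped between CLDN7 and CLDN4, and for each neighbouring pair from TJP1 down to OCLN. They did not overlap between CLDN4 and CLDN3, between CLDN3 and TJP1, or between OCLN and CLDN1. With MS275 the first 6 places were the same, and CLDN7 and CLDN4 still took 39.5% and 36.9% of the claudin level. The exons of CLDN7 share bases with those of ELP5 and of an unnamed gene, those of CLDN12 with those of 4 genes and those of CLDN2 with RIPPLY1. As it is not stated whether reads were counted by strand, reads of these overlaps cannot be told apart and the levels of these 3 claudins are uncertain to that extent.

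In colon epithelium the order was different. Cldn3 was highest at 578 ± 19.8 CPM per kb (n = 3 mice), followed by Cldn7 at 454 ± 42.1, Cldn15 at 193 ± 11.2 and Cldn2 at 164 ± 19.6. Cldn3 and Cldn7 thus held 39.6% and 31.1% of the summed claudin level, and the pore-forming Cldn15 and Cldn2 held 13.2% and 11.2%. In HCT116 with DMSO these pore formers had 1.19% and 1.09%. Cldn4, the second claudin of HCT116 per kb of exon, gave only 28.9 ± 8.11 CPM per kb in colon, or 1.98% of the claudin level. By CPM alone, Cldn7 (32.0%) stood above Cldn3 (26.4%) and Cldn2 (19.7%) above Cldn15 (14.8%). Per kb of the whole gene interval, Cldn15 and Cldn2 held 4.38% and 5.09% in colon, against 1.11% and 0.263% in HCT116 with DMSO. Exons of Cldn3 share 40 bases with those of Wbscr25, so its level is uncertain to that extent. No test was made between the species, whose tables were made separately.

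The middle of the colon order could not be resolved. Cldn4 overlapped with Cldn12 (26.7 ± 3.39 CPM per kb) and Cldn12 with Ocln (26.3 ± 2.50), and Cldn15 overlapped with Cldn2. Cldn23 (15.5 ± 1.62) and Tjp1 (11.4 ± 1.05) were lower than these without overlap. Cldn1 had 0, 0 and 1 counts in the 3 mice, which for the empty libraries allows up to 0.367 and 0.280 CPM. CLDN1 was therefore the lowest of the 10 genes in both systems. Bulk samples cannot tell apart fewer cells of a type from less RNA per cell, and colon epithelium holds several cell types.

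Raw counts of single animals, from libraries of 8166406, 10707901 and 9701476 reads, are given next. Cldn3, a sealing claudin, had 6045, 7974 and 6786 counts in mice 1 to 3, and Cldn7 had 7541, 10074 and 7673. Cldn15 had 3190, 4675 and 3905 counts and Cldn2 4109, 5476 and 6017. All 3 mice therefore showed both pore-forming claudins at 3190 counts or more. Cldn4 had 498, 653 and 344 counts, or 61.0, 61.0 and 35.5 CPM. Ocln had 957, 1057 and 1133 counts, Tjp1 680, 1052 and 825, Cldn12 1036, 1052 and 1103, and Cldn23 228, 342 and 253.

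The question of whether MS275 changed the RNA of these genes was tested with edgeR over all 14961 genes that passed the filter on low counts, which all 10 members did. Without pairing of libraries, 0 of the 10 members passed an adjusted p of 0.05 and 0 had an unadjusted p under 0.05. In that fit 0.00668% of all genes passed, a single gene, PAG1, named after its values were seen, while 987 had an unadjusted p under 0.05. With DESeq2, 0 of 10 members passed, against 0.668% of all genes, and 2 had an unadjusted p under 0.05, against 6.39%. Libraries with the same replicate number deviated together, so they were also fitted as pairs. In that fit 3 of 10 members passed, CLDN2 and CLDN7 lower and TJP1 higher, where 6.55% of all genes were called lower and 7.83% higher. The 3 calls rest on few pairs, since leaving out pair 1, 2 or 4 left 0 of 10 called, where 6.43%, 6.54% and 6.87% of all genes were still called, and leaving out pair 3 left 3, where 17.2% were.

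CLDN2, the cation pore, had 136, 393, 135 and 305 counts in DMSO libraries 1 to 4 and 20, 174, 85 and 118 in the MS275 libraries. In CPM these were 3.03, 10.8, 3.45 and 5.71 against 0.477, 4.42, 2.39 and 2.90. Each MS275 library was below its DMSO partner, but the groups overlapped. The log2 fold change was −1.33 ± 0.38 (SE, adjusted p = 0.0360, edgeR with pairs) and −1.16 ± 0.60 without pairs (adjusted p = 0.808). Without 1 pair it ranged from −1.59 to −0.94, with adjusted p of 0.0103 to 0.134.

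CLDN7 had 188, 183, 144 and 152 CPM with DMSO and 178, 140, 129 and 123 CPM with MS275. All 4 pairs moved down, by between 0.13 and 0.38 on the log2 scale, while the groups overlapped. The log2 fold change was −0.24 ± 0.07 (adjusted p = 0.0385, edgeR with pairs) and −0.23 ± 0.17 without pairs (adjusted p = 0.896). TJP1, the ZO-1 scaffold, had 104, 111, 51.7 and 121 CPM with DMSO and 141, 132, 67.9 and 141 CPM with MS275. It was higher with MS275 in 4 of 4 pairs, at 0.31 ± 0.07 (adjusted p = 0.0146, edgeR with pairs) and 0.30 ± 0.25 without pairs (adjusted p = 0.914). TJP1 stood low in both libraries numbered 3, and the difference within that pair, 0.40 on the log2 scale, was no smaller than in the other pairs.

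The other members did not pass in either fit. OCLN had 23.1, 14.8, 6.58 and 24.0 CPM with DMSO and 26.1, 22.6, 6.91 and 35.0 CPM with MS275, a log2 fold change of 0.34 ± 0.14 with pairs (adjusted p = 0.129, edgeR), with a difference above 0 in all 4 pairs. CLDN1 had 12, 50, 33 and 34 counts with MS275 against 3, 0, 13 and 11, which gave 2.63 ± 1.32 with pairs (adjusted p = 0.209, edgeR). All 4 pairs of CLDN1 were higher with MS275, and no library was above 1.27 CPM.

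CLDN4, a sealing claudin, was nearly the same in both treatments. It had 220, 342, 194 and 291 CPM with DMSO and 231, 310, 187 and 277 CPM with MS275, a log2 fold change of −0.06 with pairs (adjusted p = 0.541, edgeR). The other 4 claudins overlapped widely between treatments, at 19.6 to 32.1 CPM with DMSO against 16.3 to 36.2 CPM with MS275 for CLDN3, 22.8 to 60.1 against 26.8 to 66.1 CPM for CLDN12, 3.20 to 8.24 against 3.34 to 5.17 CPM for CLDN15 and 3.32 to 9.03 against 5.16 to 8.20 CPM for CLDN23. CLDN3 gave 0.17 (adjusted p = 0.492), CLDN12 0.07 (adjusted p = 0.700), CLDN15 −0.26 (adjusted p = 0.607) and CLDN23 0.22 (adjusted p = 0.675) in the same edgeR fit. Over the 10 members the median log2 fold change was 0.12 with pairs, against 0.01 over all genes.

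Around these members, other genes of the junctions were counted from fixed lists, chosen with earlier results of these data known. Without pairs, 0 genes passed in any of the lists. With pairs, 14.4% of all genes tested passed, 7.83% higher and 6.55% lower, and the counts of each list stand beside these shares with no test of the list. In that fit, 4 of 9 other membrane proteins of the tight junction passed, 3 higher and 1 lower. ILDR2, a tricellular junction protein, rose by 1.36 ± 0.17 on the log2 scale (adjusted p = 0.000458, edgeR with pairs), CXADR by 0.34 ± 0.10 (adjusted p = 0.0416) and F11R, which encodes JAM-A, by 0.28 ± 0.07 (adjusted p = 0.0174). MARVELD3, a relative of occludin, fell by 0.49 ± 0.12 on the log2 scale (adjusted p = 0.0160, edgeR). The median of this list was 0.19 log2, against 0.01 over all genes.

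Scaffold and polarity proteins gave 8 higher and 0 lower of 25, with a median of 0.07 log2. AMOT, an angiomotin that binds polarity complexes, rose by 1.26 ± 0.13 (adjusted p = 0.000178, edgeR with pairs), cingulin (CGN) by 0.81 ± 0.14 (adjusted p = 0.00328) and its relative CGNL1 by 0.75 ± 0.22 (adjusted p = 0.0418). Of the 16 other claudins, only CLDN9 passed the filter on low counts, and it was not called.

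Desmosomes and adherens junctions were counted in the same fit with pairs. All 7 desmosome genes tested passed, 6 higher and 1 lower, with a median of 0.41 log2. PKP2 rose by 0.53 ± 0.10 (adjusted p = 0.00415, edgeR), desmoplakin (DSP) by 0.44 ± 0.06 (adjusted p = 0.000938) and DSC2 by 0.43 ± 0.10 (adjusted p = 0.0142), while PKP3 fell by 0.33 ± 0.08 (adjusted p = 0.0198). In adherens junctions 2 of 8 genes passed, both higher, and the median was 0.11 log2. These were E-cadherin (CDH1), at 0.74 ± 0.09 (adjusted p = 0.000466, edgeR), and vinculin (VCL), at 0.61 ± 0.06 (adjusted p = 0.000147).

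Among 12 transcription factors linked to junction genes, 3 passed. GRHL1, a grainyhead factor, rose by 1.40 ± 0.20 (adjusted p = 0.00105, edgeR with pairs) and KLF5 by 0.31 ± 0.09 (adjusted p = 0.0413), while CDX2, which specifies intestine, fell by 0.44 ± 0.13 (adjusted p = 0.0442). Of the 7 epithelial markers tested, 6 passed, 4 higher and 2 lower, as did the stromal marker COL1A1 (0.92 ± 0.20, adjusted p = 0.00874), whose call was lost without pair 1. Calls in the lists depended on the pairs included. With 1 pair left out, the desmosome list had 3 to 7 calls, the scaffold list 3 to 8, the membrane list 1 to 3, the transcription factors 1 to 3, adherens junctions 2 and the epithelial markers 4 to 5. The low ends came with pair 1, 2 or 4 left out, fits in which the share of all genes called also fell, to between 6.43% and 6.87%.

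Where the marks lie was read from the peak tables of HCT116, whose log2 values are scaled reads per peak. CLDN2 had 8 peaks, TJP1 7, CLDN4 6, OCLN 4 and CLDN12 2, while CLDN3, CLDN7, CLDN15 and CLDN23 had 1 each. CLDN1 had 0 peaks, although its promoter window holds 31 CpG at 67.0% GC. Member peaks were 300 to 14100 bp long, with a median of 2700 bp against 1950 bp over all peaks. The longest covered the start of CLDN4 (chr7:73821001-73835100), followed at 7350 bp by the last peak of CLDN2 and at 6600 bp by the peak over CLDN7 (chr17:7258501-7265100). Peaks were assigned by position only, and some intervals overlap other genes. That of CLDN2 overlaps MORC4 and RIPPLY1, and that of CLDN7 overlaps ELP5 and an unnamed gene. The TJP1 peak with the most reads (chr15:29819251-29823750) covered an internal start site, and the upstream promoter of RefSeq was in no peak. The single CLDN15 peak lay at the 3′ end of the gene.

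Start-site peaks differed in height over input. As the mean log2 ratio to the DMSO input, which is 1 library, H3K18cr with DMSO gave 2.90 at CLDN7, 2.38 at TJP1, 2.10 at CLDN4, 2.03 at CLDN2 and 1.92 at OCLN. It gave 1.66 at CLDN3, 1.26 at CLDN23 and 1.19 at CLDN12. For H3K18ac CLDN7 at 3.02 and TJP1 at 2.87 came first too, but OCLN at 2.23 stood above CLDN4 at 2.10 and CLDN2 at 1.65, and CLDN12 at 1.48 and CLDN3 at 1.45 above CLDN23 at 1.22. Median ratios over all peaks were 0.99 to 1.19 in the 3 H3K18cr DMSO libraries and 0.90 to 1.23 in those of H3K18ac.

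**Figure D1:**
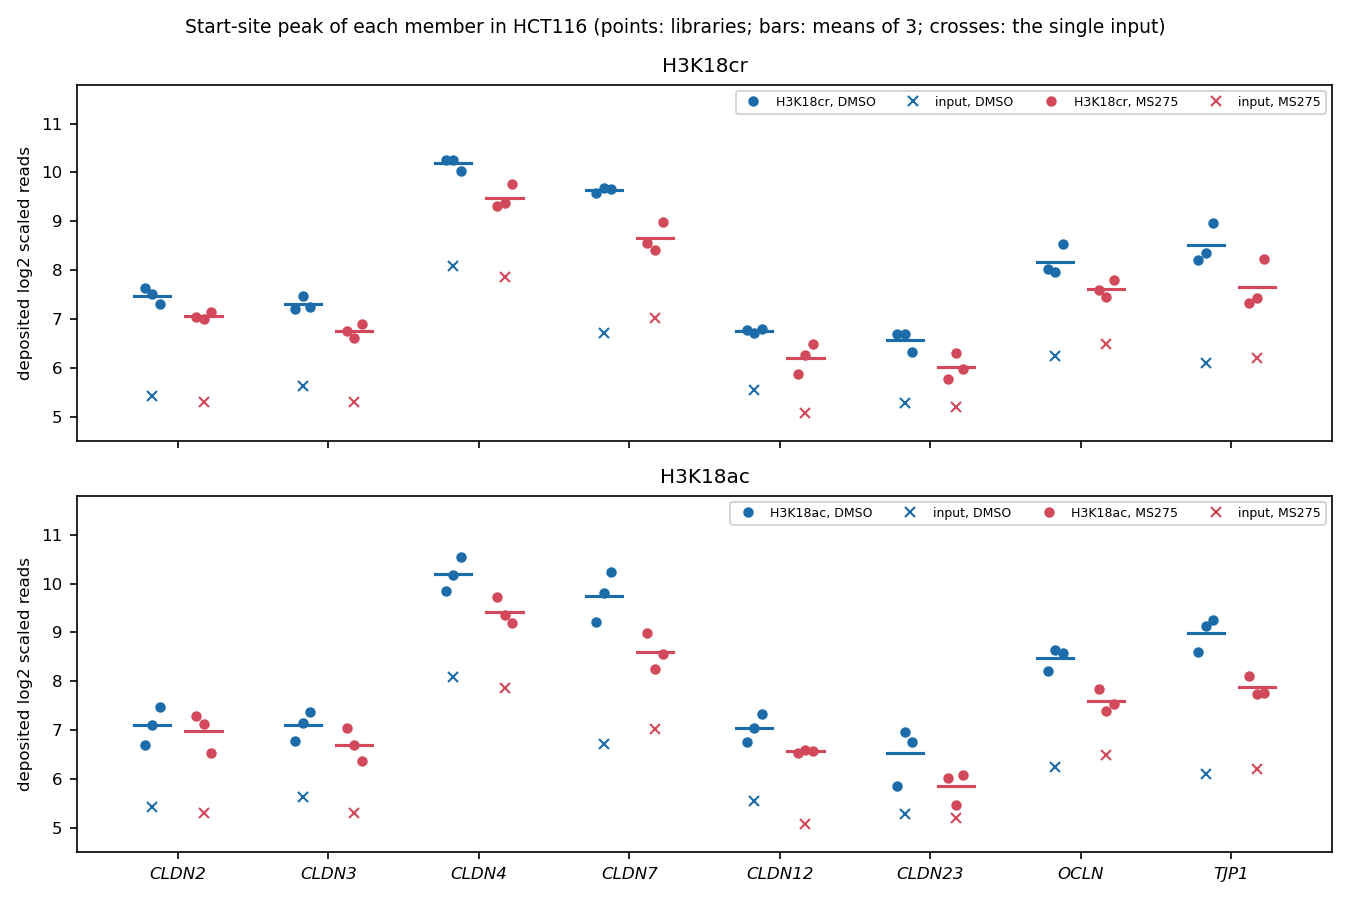
Log2 scaled reads in the start-site peak of each gene for H3K18cr and H3K18ac, with 1 point per DMSO or MS275 library and the input libraries. At CLDN7 and CLDN4 all MS275 points lie below all DMSO points in both marks.

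The question of how MS275 changed the marks was tested with limma over all peaks. The values as deposited put most peaks lower with MS275, the median of all peaks being −0.20 for H3K18cr and −0.19 for H3K18ac, and with TMM scaling these medians were 0.04 and 0.06. Scaled reads are relative within a library, so a lower value is not a measured loss of the mark. The paper reported that MS275 raised histone crotonylation in western blots. It proposes that the relative drop at start sites could come from a rise of the marks elsewhere, which was not tested here. For H3K18cr, 9 of 31 member peaks were called lower and 0 higher, where 23.0% of all peaks were lower and 0.232% higher. With TMM scaling, 2 of 31 were lower, where 11.1% of all peaks were lower and 1.78% higher. For H3K18ac, 5 of 31 were lower and 0 higher with either scaling, against 16.3% lower and 0.264% higher of all peaks as deposited, and 16.5% and 4.49% with TMM. The median change of member peaks was −0.32 for H3K18cr and −0.28 for H3K18ac as deposited, and −0.08 and −0.03 with TMM. As a list, the members therefore lay near the background.

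Counts depended on single libraries. The 9 H3K18cr calls became 3 without MS275 library 1 and 4 without DMSO library 2 or MS275 library 2. The share of all peaks called lower fell as well, to 15.4%, 15.8% and 14.7% in these fits. The 5 H3K18ac calls became 1 without MS275 library 2 and 2 without DMSO library 2 or MS275 library 3, where 3.54%, 7.53% and 4.66% of all peaks were called lower. With replicate number as a block, 0 of 31 member peaks were called in H3K18ac, where 2.01% of all peaks were called lower. In H3K18cr that fit called 10 of 31 lower, where 26.1% of all peaks were. Groups did not overlap, with MS275 lower, at 11 of 31 member peaks for H3K18cr and at 8 of 31 for H3K18ac, where 29.9% and 23.1% of all peaks did so. With MS275 higher they did so at 0 of 31 in both marks, against 3.16% and 3.33% of all peaks.

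CLDN7 had the largest fall in scaled reads among the members in both marks. Its H3K18cr peak had log2 values of 9.58, 9.68 and 9.65 in the DMSO libraries and 8.56, 8.42 and 8.98 in the MS275 libraries. H3K18ac had 9.22, 9.81 and 10.2 with DMSO and 8.98, 8.25 and 8.55 with MS275, and the inputs were at 6.72 and 7.02. No MS275 library reached a DMSO library in either mark. The change was −0.98 ± 0.16 for H3K18cr (adjusted p = 5.54e-05, limma), or 50.6% of the DMSO value, and −1.16 ± 0.25 for H3K18ac (adjusted p = 0.000204), or 44.7%. These are relative values and not amounts of the mark. By ChIP-qPCR the paper reported more H3K18cr with MS275 at gene promoters, and its primer list includes the start of CLDN7. Relative to the median of all peaks these were −0.78 and −0.97, and only 2.31% and 1.75% of all peaks had a lower change. With TMM the call held in both marks (adjusted p = 0.00131 and 8.61e-08, limma). The H3K18ac call was lost without MS275 library 2, at an adjusted p of 0.0538 in limma.

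At the internal start of TJP1, H3K18cr had 8.21, 8.35 and 8.96 with DMSO and 7.33, 7.43 and 8.23 with MS275, so that the groups just overlapped. H3K18ac had 8.59, 9.14 and 9.26 with DMSO and 8.12, 7.74 and 7.77 with MS275, without overlap. The changes were −0.84 ± 0.20 (adjusted p = 0.00191, limma) and −1.12 ± 0.25 (adjusted p = 0.000428). Relative to all peaks they were −0.64 and −0.93. Both calls held without any 1 library, at adjusted p of up to 0.0351 and 0.0413. With TMM the H3K18cr call was lost (adjusted p = 0.0643, limma) and that of H3K18ac kept (1.49e-07). With replicate number as a block, the H3K18ac call was lost. The 6 other TJP1 peaks were not called in either mark, from −0.32 to 0.67 for H3K18cr.

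The long CLDN4 peak had H3K18cr values of 10.3, 10.3 and 10.0 with DMSO and 9.31, 9.38 and 9.76 with MS275, and H3K18ac values of 9.85, 10.2 and 10.5 against 9.73, 9.37 and 9.18. Neither mark overlapped between treatments. The changes were −0.70 ± 0.15 (adjusted p = 0.000873, limma) and −0.76 ± 0.24 (adjusted p = 0.0135), and both held with TMM (0.00933 and 0.000138). The H3K18ac call was lost without DMSO library 2, MS275 library 2 or MS275 library 3, at adjusted p of up to 0.227. Of the 5 upstream CLDN4 peaks, CLDN4_1 and CLDN4_3, numbered along the chromosome, were also lower in H3K18cr, at −0.46 (adjusted p = 0.0491, limma) and −0.52 (adjusted p = 0.0246). Each of these calls was kept in 2 of 6 fits with 1 library left out, with adjusted p of up to 0.244 and 0.204. With TMM both H3K18cr calls were lost, while CLDN4_3 was called lower in H3K18ac (adjusted p = 0.0199, limma).

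OCLN had H3K18cr values of 8.02, 7.97 and 8.53 at its start with DMSO and 7.60, 7.44 and 7.79 with MS275, and H3K18ac values of 8.22, 8.64 and 8.58 against 7.85, 7.39 and 7.54. All MS275 libraries were below all DMSO libraries. The changes were −0.56 ± 0.17 (adjusted p = 0.0152, limma) and −0.88 ± 0.25 (adjusted p = 0.00604). With TMM the H3K18cr call was lost (adjusted p = 0.219, limma) and the H3K18ac call kept (0.000108). Without 1 library the adjusted p rose to as much as 0.115 for H3K18cr (MS275 library 2, and 0.0654 without MS275 library 1) and 0.144 for H3K18ac, where DMSO library 2, MS275 library 2 and MS275 library 3 each ended the call.

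At the remaining start sites the H3K18cr calls did not hold under the other scaling. H3K18cr changed by −0.55 ± 0.17 at CLDN3 (adjusted p = 0.0180, limma), −0.56 ± 0.19 at CLDN12 (adjusted p = 0.0320) and −0.55 ± 0.20 at CLDN23 (adjusted p = 0.0403), and each of these calls was lost with TMM. In H3K18ac only CLDN23 of these passed, at −0.66 ± 0.25 (adjusted p = 0.0478, limma), and this was lost with TMM as well (0.133). Without 1 library, CLDN3 kept its H3K18cr call in 3 of 6 fits, CLDN12 and CLDN23 in 2 of 6.

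CLDN2, whose RNA was called lower in the fit with pairs, had the smallest changes at a start site. They were −0.42 ± 0.17 for H3K18cr (adjusted p = 0.0729, limma) and −0.11 ± 0.25 for H3K18ac (adjusted p = 0.868), and the latter had the opposite sign with TMM (0.14). None of the 8 CLDN2 peaks was called in either mark. TJP1, by contrast, was called higher in RNA with pairs while scaled reads of both marks were lower at its internal start. CLDN7 was called lower in RNA with pairs and in scaled reads of both marks. CLDN4 had lower scaled reads in both marks beside a log2 RNA change of −0.06. As scaled reads are relative, RNA is not set here against the amount of a mark. RNA and ChIP libraries are different samples, and no test joined them.

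The effect of MS275 was then compared between the marks. The difference in effect, H3K18cr minus H3K18ac, was 0.18 ± 0.30 at CLDN7, 0.28 ± 0.32 at TJP1 and 0.33 ± 0.29 at OCLN (all adjusted p = 1, limma). Of the 31 member peaks 0 passed, and 0 had an unadjusted p under 0.05. Among all 40266 peaks 0 passed (0%) and 739 had an unadjusted p under 0.05. The sign of the difference depended on single replicates. The median over member peaks was 0.05, with 16 of 31 positive, and became 0.23 with 26 positive without replicate 1 and −0.34 with 7 positive without replicate 3. In these fits 1 and 5 of 31 members had an unadjusted p under 0.05, against 6.15% and 10.8% of all peaks, and 0 passed, where the medians of all peaks were 0.27 and −0.25. A difference between the marks was therefore not shown with these libraries.

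**Figure D2:**
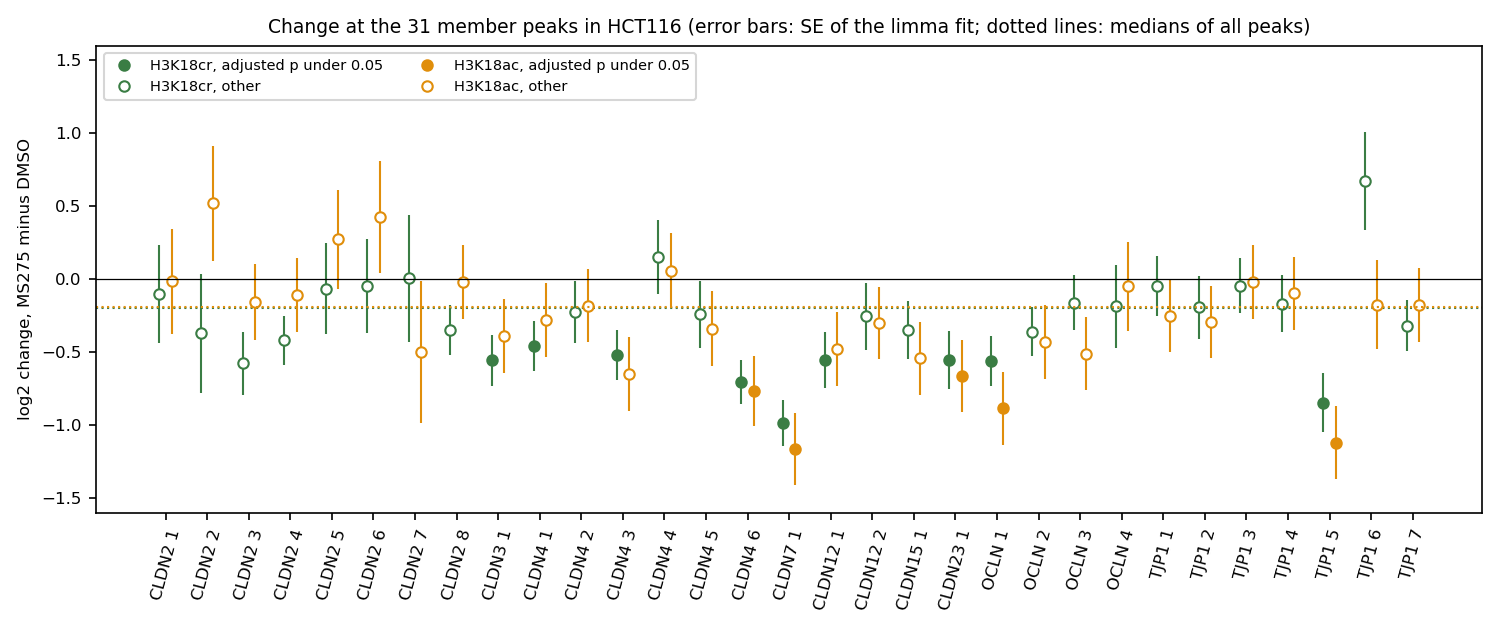
Log2 change with MS275 ± SE at each of the 31 member peaks for H3K18cr and H3K18ac, as deposited, with lines at the medians of all peaks (−0.20 and −0.19). The start-site peaks of CLDN7 and TJP1 lie lowest, at −0.98 and −0.84 for H3K18cr and −1.16 and −1.12 for H3K18ac.

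In colon the same genes were read for H3K18cr and H3K4me3 without treatment. The median ratio to input of member peaks was above that of all peaks in every library. For H3K18cr the log2 median over members was 1.44 and 1.90 in the 2 libraries, against 1.17 and 1.48 over all peaks. For H3K4me3 it was 1.98, 2.60 and 3.08, against 1.35, 1.79 and 2.01. Ratios rest on 1 input per library for H3K18cr and 1 input in all for H3K4me3.

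Cldn7 had the widest single H3K18cr peak of the members in colon. Its H3K18cr peak (chr11:69960451-69970350, GRCm38) spanned 9900 bp and held 682 and 1323 scaled reads in the 2 libraries, against 245 and 314 in the inputs. Its H3K4me3 peak spanned 3600 bp and held 395, 674 and 885 scaled reads against 71 in the input. Cldn3 carried a pair of adjoining H3K18cr peaks, of 8250 and 4800 bp, with 501 and 969 scaled reads in the first and 361 and 822 in the second. Its H3K4me3 peak of 4350 bp held 425, 746 and 804 scaled reads against 94. The Cldn7 peak and the first Cldn3 peak held more scaled reads of H3K18cr than any other member peak, but the mean log2 ratios to input, 1.77 at Cldn7 and 1.62 and 2.00 at Cldn3, were below those at the starts of Ocln, Cldn23, Cldn12 and Tjp1 (2.05 to 2.32).

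Ocln had 8 H3K18cr peaks, more than any other member. Its start-site peak (chr13:100550401-100553850) held 375 and 668 scaled reads against 94 and 105, and the H3K4me3 peak there held 407, 690 and 926 against 62. With log2 ratios of 2.32 for H3K18cr and 3.34 for H3K4me3, this start had the highest mean in both marks, although in H3K18cr library 1 Cldn23 was at 2.00 and Ocln at 1.99. Ocln was number 7 of the 10 in RNA. Tjp1, number 9 in RNA, had ratios of 2.05 and 2.87, and Cldn23 of 2.21 and 2.59. Cldn4 gave 1.35 and 2.11, with 137 and 220 scaled reads of H3K18cr against 69 and 65.6.

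Among the pore-forming claudins, Cldn2, number 4 in RNA, had 0 H3K4me3 peaks and only 2 short H3K18cr peaks of 600 and 450 bp, neither at its start. They held 33.4 and 60 scaled reads in the longer and 27 and 45.4 in the shorter, against inputs of 13 and 9.16 and of 7 and 12.2, with mean log2 ratios of 1.94 and 1.81. Cldn15, number 3 in RNA, had an H3K18cr peak with 353 and 525 scaled reads against 147 and 185 in the inputs, log2 ratios of 1.26 and 1.5 that lay just above the medians of all peaks in these libraries, and 2 H3K4me3 peaks at 1.22 and 1.15. The first of these held 85.1, 107 and 158 scaled reads against 48 in the input. Cldn1, with 1 count in 3 mice, had no H3K18cr peak but an H3K4me3 peak of 1050 bp, the weakest of the start sites, at a log2 ratio of 1.00 with 46.0, 61.5 and 65.6 scaled reads against 28. A gene with no peak was not shown to lack the mark, as the lists hold only what the peak caller accepted.

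**Figure D3:**
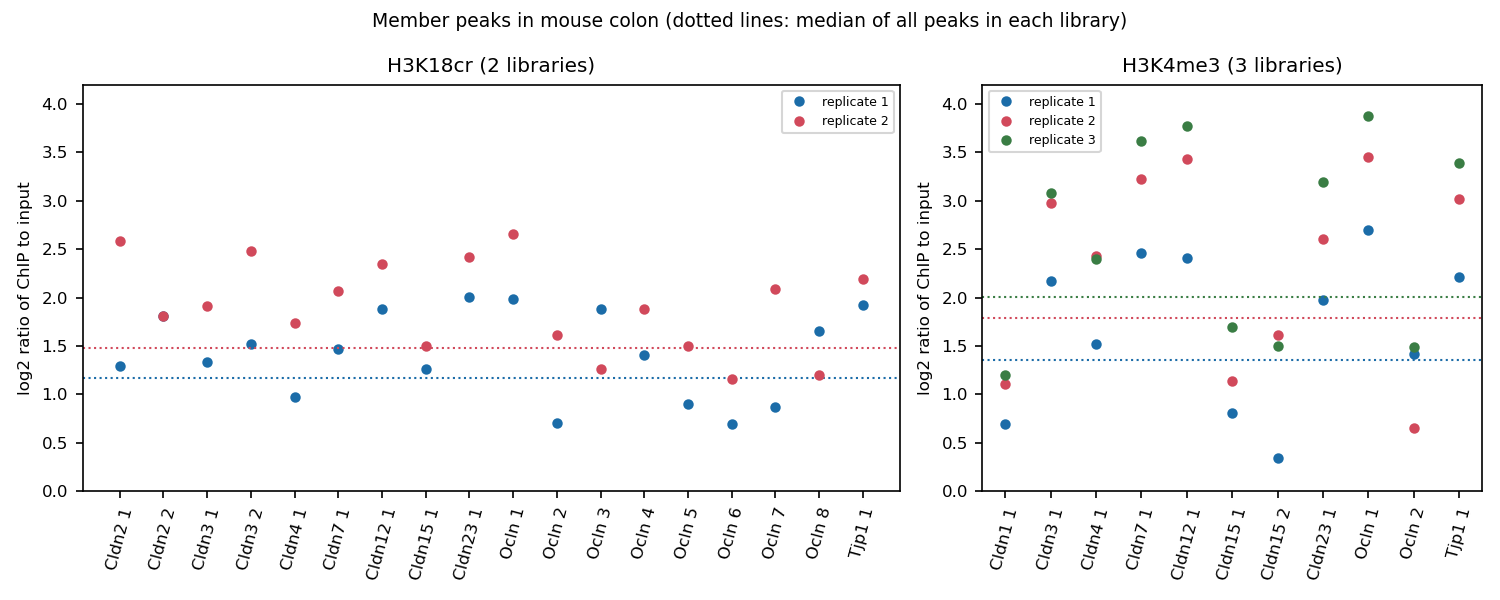
Log2 ratio of ChIP to input at each member peak of colon, with 1 point per library, for H3K18cr and H3K4me3, with the median of all peaks per library. Ocln leads at its start with mean ratios of 2.32 and 3.34, and the H3K4me3 peaks of Cldn15 (1.22 and 1.15) and Cldn1 (1.00) are low.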

How the data were processed

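RNA-seq and ChIP-seq tables of colon epithelium and HCT116 cells were used. The RNA tables hold counts of reads per gene, which the authors deposited without normalization. The authors trimmed reads with Trim Galore (0.4.2), mapped them with HiSat2 and counted them in SEQMONK, steps that are stated for mouse. The submitters' processing notes also list TopHat2 (2.0.12) and Bowtie2 (2.2.5), and the use of strand in counting is not given in the sources used here. The colon ChIP tables hold a signal per peak, deposited as read counts multiplied by 1 factor per library. The HCT116 ChIP table holds log2 values of such scaled reads, as the authors gave them, and 0.9 read stands there for 0. ChIP reads were mapped with Bowtie2 to GRCm38 or GRCh38, duplicates were removed, and the authors called 1 list of peaks per table with the MACS peak finder in SEQMONK. Whole reads were recovered for 100% of HCT116 values.

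Genes were tested with edgeR 4.0.16 (quasi-likelihood, TMM, filterByExpr) and peaks with limma 3.58.1 on the deposited log2 values, in R 4.3.3, with Benjamini-Hochberg adjustment and a threshold of 0.05. Peaks needed 10 reads in 3 libraries. The design had assumed counts for the HCT116 peaks, so edgeR and DESeq2 1.42.0 on recovered reads were alternatives. Log2 ratios to input used a pseudocount of 1 scaled read. CPM was divided by exon length from GENCODE 44 in human. Start sites are protein-coding starts within 1 kb of a peak, and the start-site peak of a gene is the one with the most reads. Figures and counts were made in Python 3.11.15. Tests were checked on simulated data.

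Replicate numbers are those of the labels, which do not say what a number shares. In HCT116 RNA, the departures of both libraries of a number from the mean of their treatment correlated across genes at 0.226, 0.151, 0.433 and 0.460, all over 0.1, so numbers were taken as pairs from the data. Libraries numbered 2 and 4 of opposite treatments also correlated, at 0.239 and 0.219, above the 0.151 of number 2 itself, so the pairing is a choice on which the calls with pairs depend. P-values measure the spread between these samples only. The 10 members and all gene lists were chosen with earlier results of these data known. Named were all members and their peaks and, per list and direction, up to 3 called genes with the largest change. Intervals and floors of 3 counts cover counting error only. The unpaired fit, other scalings, filters, pseudocounts and left-out libraries are in the closing section.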

Additional observations from a re-analysis of the deposited data

Results flagged for a closer look

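Among 20 groups of 4 RNA libraries, 3 held a library far from the other 3, where chance alone marks about 1 in 20. CLDN12 in DMSO library 3 was at 22.8 CPM, while the other DMSO libraries were between 55.3 and 60.1 CPM. TJP1 in MS275 library 3 was at 67.9 CPM, and the others were between 132 and 141 CPM. CLDN23 in MS275 library 4 was at 8.20 CPM, and the others were between 5.16 and 5.39 CPM. Library 3 was also the lowest of its treatment for OCLN, at 6.58 CPM with DMSO and 6.91 CPM with MS275.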

How the results depend on the processing

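Without pairs of libraries 1 of 14961 genes and 0 of 10 members were called. The replicate block gave 2151 genes and 3 members, and the block with DESeq2, added after seeing the data, 2602 genes and 3 members. The blocked fit with 1 pair left out, also added, gave 968, 994, 2584 and 1037 genes without pairs 1 to 4 and 0 to 3 members. Without the block, DESeq2 called 161 genes and no filter on low counts 13, and leaving out 1 library gave 0 to 1 genes and 0 members. For H3K18cr the 9303 called peaks became 5160 with TMM, 5511 with edgeR and 3376 with DESeq2 on recovered reads, and 5918 to 12590 with 1 library left out. The 9 called member peaks became 2 in each of the first 3 and 3 to 11 with 1 library left out. For H3K18ac 6640 peaks became 814 with the replicate block and 1432 to 9318 with 1 library left out, and the 5 member peaks (the starts of CLDN7, TJP1, OCLN, CLDN4 and CLDN23) became 0 and 1 to 7. ChIP numbers shared no clear pairing (correlations 0.108, 0.0729 and 0.229 for H3K18cr, −0.207, 0.0464 and −0.134 for H3K18ac), and the replicate block left 10 H3K18cr member calls. Among the 10 genes and their named peaks, directions reversed as follows. With 1 library left out the log2 RNA change ran from −0.16 to 0.22 for CLDN12, −0.56 to 0.021 for CLDN15, −0.017 to 0.47 for CLDN23 and −0.18 to 0.051 for CLDN4. H3K18ac at the CLDN2 start was 0.14 with TMM and with DESeq2, 0.13 with edgeR and −0.30 to 0.12 with 1 library left out. The cause was not tested. Of the start-site and other named peak changes, 170 values kept direction and call, 61 lost and 4 gained a call. Per kb of gene interval in place of exon, 2 of 10 genes kept their place with DMSO, 3 with MS275 and 5 in colon. Peaks within 0 or 5 kb of a gene numbered 30 or 37 in HCT116. Depth limits CLDN1, CLDN2, CLDN15 and CLDN23, whose HCT116 libraries held at most 393 counts.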

Other observations

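Claudins that are not among the 10 members were chosen here after their values were seen. Of 15 such claudins in the colon table, 2 were above 10 CPM and 8 were at 0 in all 3 mice. Cldn8, a sealing claudin of the distal gut and kidney, had 776, 753 and 728 counts, or 95.0, 70.3 and 75 CPM, with a mean of 80.1 CPM, where the means of Cldn4 and Tjp1 were 52.5 and 88.9 CPM. Cldn25 gave 60.9 CPM and Cldn14 7.61 CPM. These levels are per library and not per length.

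Other junctions were well represented in colon RNA. All 8 adherens junction genes in the table and all 8 desmosome genes were above 10 CPM, led by β-catenin (Ctnnb1) at 1095 ± 23.6 CPM and E-cadherin (Cdh1) at 988 ± 75 CPM (n = 3). Among desmosome genes, desmoplakin (Dsp) stood at 353 ± 44.5 CPM and the plakophilins Pkp1, Pkp2 and Pkp3 at 72.0 ± 7.91, 72.1 ± 3.67 and 104.8 ± 9.51 CPM.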
